A study of Mus musculus with 6 samples.

Results

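The genes described here are 10 factors linked to cellular quiescence: Txnip, the FoxO transcription factors Foxo1, Foxo3 and Foxo4, the Krüppel-like factors Klf2, Klf4 and Klf6, and the antiproliferative genes Btg1, Btg2 and Tob1. They were taken by gene symbol from a count table of 55573 genes. All 10 were found, and all 10 passed the filter on low counts that left 20646 genes for testing. RNA was sequenced in bulk from LSK cells, bone marrow cells sorted as Lin- Sca-1+ c-Kit+, a fraction enriched for stem cells and multipotent progenitors. The wild-type group (Etv6+/+) and the mutant group each had 3 libraries, all from C57BL/6J mice aged 3 months. The series text names the mutant allele Etv6R355X/+, while the genotype field gives Etv6+/-. The mutant carries 1 altered copy of Etv6, whose product is an ETS protein that represses transcription. The labels do not say whether libraries of a genotype came from separate mice, so the tests measure the spread between libraries, which may be technical. In bulk RNA, fewer cells of a type and less RNA per cell cannot be told apart.

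Quiescence is the reversible state outside the cell cycle in which most long-term blood stem cells are held. FoxO factors enter the nucleus when PI3K and Akt signalling is low and switch on genes of cell cycle arrest and stress resistance, and Foxo3 is known for maintaining the stem cell pool. Txnip binds and inhibits thioredoxin and restrains glucose uptake, KLF2 and KLF4 hold T cells and other cells in a resting state, and BTG and TOB proteins recruit the CCR4-NOT deadenylase to messenger RNAs and slow proliferation.

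Promoter sequence is shown for Txnip, whose level differed most between the libraries, and for Btg1 and Btg2, which hold motifs of factors known to act in quiescence or stress. RefSeq windows (GRCm38.p6, the mm10 build) of 250 bases upstream of the start site were found for 9 of the 10 genes; Foxo4 was not among them. Capitals mark motif matches. In Txnip (plus strand, chr3:96557707-96557956) they are, 5′ to 3′, a FoxO core read on the opposite strand, a pair of degenerate E-boxes and an ETS core read on the opposite strand. In Btg1 (plus strand, chr10:96616751-96617000) the capitals mark a FoxO core. In Btg2 (minus strand, chr1:134079156-134079405) they mark a cyclic AMP response element.
Txnip: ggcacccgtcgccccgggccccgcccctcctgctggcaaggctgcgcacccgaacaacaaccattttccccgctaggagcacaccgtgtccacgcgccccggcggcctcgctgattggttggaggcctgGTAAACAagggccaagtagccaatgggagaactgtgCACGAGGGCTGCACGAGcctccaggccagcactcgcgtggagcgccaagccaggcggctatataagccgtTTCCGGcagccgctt
Btg1: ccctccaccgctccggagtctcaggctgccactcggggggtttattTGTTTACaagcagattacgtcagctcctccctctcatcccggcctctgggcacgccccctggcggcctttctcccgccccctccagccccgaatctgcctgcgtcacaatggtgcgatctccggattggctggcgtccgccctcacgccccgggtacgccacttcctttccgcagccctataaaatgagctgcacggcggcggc
Btg2: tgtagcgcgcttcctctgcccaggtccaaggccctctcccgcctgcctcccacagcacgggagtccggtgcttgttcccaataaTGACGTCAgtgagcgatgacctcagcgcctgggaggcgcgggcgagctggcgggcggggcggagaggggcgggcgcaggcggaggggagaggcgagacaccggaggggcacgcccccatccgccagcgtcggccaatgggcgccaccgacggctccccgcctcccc

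The FoxO core searched was TGTTTAC on both strands, and 3.17% of 32851 RefSeq windows of the same length hold it. The Txnip match lies at -121 to -115 from the start site, and the Btg1 match at -204 to -198. Neither Foxo1 nor Foxo3 holds this core in its own window. The pair of degenerate E-boxes, CACGNG repeated after 5 bases, is the form bound by the glucose-sensing MondoA and MLX proteins. It lies at -85 to -69 in Txnip and occurs in 15 windows, 0.0457% of all. The ETS core CCGGAA, at -15 to -10 in Txnip, was found in 12% of windows and in no other of the 9 genes. The cyclic AMP response element TGACGTCA at -166 to -159 in Btg2 occurs in 1.55% of windows. The E-box CACGTG, present in 6.02% of windows, was found in Klf4 and Klf6. Foxo1, Foxo3, Klf2 and Tob1 held none of the 5 motifs in these windows. No motif overlaps another. These matches describe letters and do not show binding.

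Etv6 was measured first as a check of the labels. Its level was 454, 419 and 400 CPM (expected counts relative to the library total after TMM scaling) in wild-type libraries 1, 2 and 3, and 305, 341 and 386 CPM in mutant libraries 1, 2 and 3. All mutant libraries lay below all wild-type libraries. The fitted log2 difference, mutant minus wild type, was -0.30 (SE 0.09), with an adjusted p of 0.245 in edgeR's quasi-likelihood test; the exact two-sided permutation test gave p = 0.1, the smallest that 3 against 3 libraries allow. Library totals ran from 45.2 to 92.2 M expected counts, with mutant 1 the deepest. Nuclear ribosomal RNA took 9.87% of mutant 1 and 6.73% to 7.45% of the others. Among markers of other cell types, the summed CPM of 8 B cell markers ranged from 1407 to 2230 in wild type and from 2288 to 2669 in the mutant. The ranges were 54.0 to 84.1 against 114 to 222 CPM for 8 erythroid markers and 31.9 to 35.3 against 38.7 to 59.4 CPM for 5 mast cell and basophil markers. After TMM scaling, these 3 sums did not overlap between genotypes. Sums for T and NK cell, neutrophil, macrophage, endothelial and LSK markers overlapped, and no marker of any of the 8 lists was at 0 over the 6 libraries. Still, 6 of 8 macrophage markers had the higher mean in the mutant at an unadjusted edgeR p under 0.05, and 0 the lower. Over all genes these shares were 5.83% and 4.8%. Of 11 T and NK markers, 1 passed in edgeR (Klrb1c, higher in the mutant, adjusted p = 0.0177). Nkg7 held 102 CPM of that list's wild-type mean sum of 116 CPM. The LSK markers, Kit, Ly6a, Cd34 and Flt3 among them, summed to between 1464 and 1898 CPM.

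In mm10 coordinates, Txnip and Foxo1 both lie on chromosome 3, Foxo1 at 52268336 to 52353221, and Foxo3 and Btg1 both lie on chromosome 10, at 42181841 to 42276755 and 96617006 to 96622809. Foxo4 is X-linked (101254528 to 101260873). Klf2 lies on chromosome 8 at 72319033 to 72321656, Klf4 on chromosome 4 at 55527143 to 55532466 and Klf6 on chromosome 13 at 5861482 to 5870394. Btg2 lies on chromosome 1 at 134075170 to 134079120 and Tob1 on chromosome 11 at 94211454 to 94215495. Only Txnip and Foxo1 overlap other annotated genes, and Txnip alone has expected counts that are not whole numbers.

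Txnip was by far the most abundant of the 10 transcripts per length, and Klf4 the least. Averaged over the 6 libraries and divided by the merged exon length, Txnip reached 92.3 CPM per kb, above 98.4% of the tested genes. Foxo3 was next at 24.0 CPM per kb, above 92.7% of genes, followed by Btg1 at 11.1, Klf6 at 9.24 and Btg2 at 7.56 CPM per kb. Tob1 stood at 4.41, Foxo1 at 4.07, Foxo4 at 2.15, Klf2 at 1.57 and Klf4 at 0.723 CPM per kb. The ranges over libraries did not overlap between Txnip and Foxo3, Foxo3 and Btg1, Btg2 and Tob1, Foxo1 and Foxo4, or Klf2 and Klf4. They overlapped between Btg1 and Klf6, Klf6 and Btg2, Tob1 and Foxo1, and Foxo4 and Klf2. Within single libraries, Btg1 exceeded Klf6, Klf6 exceeded Btg2 and Foxo4 exceeded Klf2 in 6 of 6, while Tob1 exceeded Foxo1 in 4 of 6, so only the order of Tob1 and Foxo1 varied between libraries. Among the FoxO genes, Foxo3 exceeded Foxo1, and Foxo1 exceeded Foxo4, in every library.

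**Figure D1:**
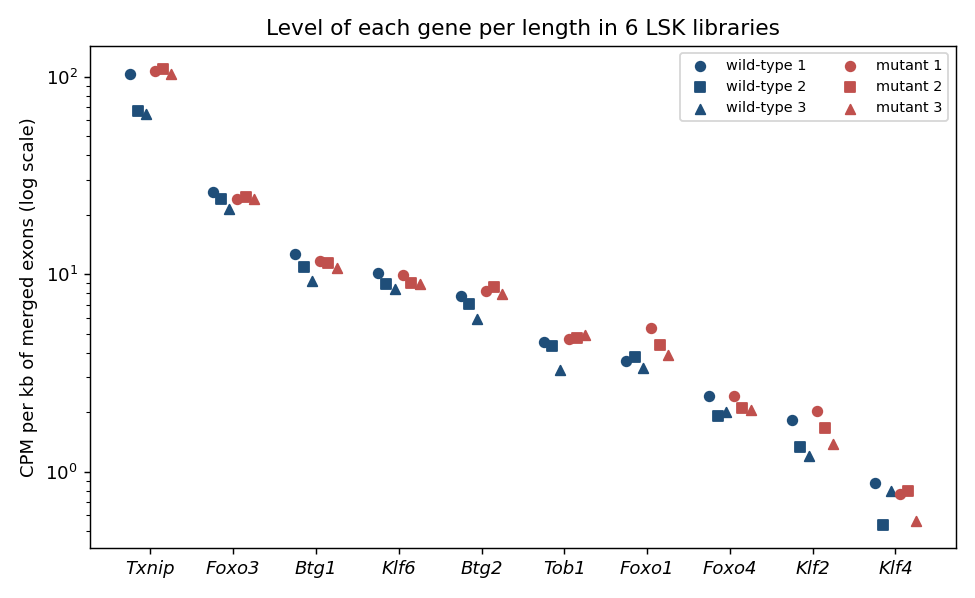
Level of each of the 10 genes in CPM per kb of merged exons (log axis), with 1 point per library, blue for wild type and red for Etv6 R355X/+. Txnip lies highest, with wild-type 1 beside the 3 mutant libraries and wild-type 2 and 3 below them; Klf4 lies lowest.

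No member passed an adjusted p of 0.05 between genotypes. In edgeR, 0 of 10 were called, against 0.266% of all tested genes (55 of 20646), and DESeq2 and limma-voom called 0 of 10 as well, against 1.77% and 0.199% of the genes with an adjusted p. At an unadjusted p under 0.05 there were 3 of 10 (Txnip, Foxo1 and Btg2, each with the higher mean in the mutant), against 10.6% of all genes in either direction. In 4 of 10 (Txnip, Foxo1, Btg2 and Tob1) every mutant library lay above every wild-type library, against 8.45% of all genes, and in 0 of 10 did every mutant library lie below. Separation in those 4 genes depended on TMM scaling. With counts divided by the library total alone, the genotypes overlapped in each of them. For Txnip, expected counts were 19628 of 60.8 M in wild-type 1 and 29031 of 92.2 M in mutant 1. The fitted log2 difference was above 0 for 9 of 10, with a median of 0.14 against 0.0019 over all genes tested; Foxo3 and Klf6 were below 0 when libraries were scaled by size alone. That median was -0.041 when mutant 1 and wild-type 3 were left out together, with 4 of the 10 above 0, and ran from 0.05 (without mutant 1) to 0.24 (without wild-type 1) when single libraries were left out.

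Txnip lies on chromosome 3 at 96557957 to 96561883 on the plus strand (mm10, ENSMUSG00000038393.14). It measured 320, 209.6 and 202 CPM in wild-type libraries 1, 2 and 3, and 332, 342 and 323 CPM in mutant libraries 1, 2 and 3. After TMM scaling the mutant libraries were close together and all above the wild type, but wild-type 1 was almost at their level. The means were 244 ± 66.1 CPM across wild-type and 332 ± 9.82 CPM across mutant libraries (SD, n = 3), a fold of 1.36 with a 95% interval from 1.09 to 1.70. The adjusted p was 0.312 in edgeR (unadjusted 0.0107), and the exact permutation p was 0.1. Wild-type 1 stood 1.56-fold above the mean of the other wild-type libraries, a distance like the 1.61-fold of the mutant mean over those libraries. The edgeR call depended on this library and on the filter on low counts. Without wild-type 1 the log2 difference was 0.69 with an adjusted p of 0.0198. With any other single library left out it was between 0.33 and 0.47 with no call. With all libraries kept, Txnip was called in edgeR without a filter on low counts (adjusted p = 0.000849). The B cell marker sum was 1724, 2230 and 1407 CPM in wild-type libraries 1, 2 and 3. Most of it was Ighm, at 1623 CPM in wild-type 1. For Txnip the part of B cells was not tested.

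An antisense gene, Gm15441, runs across the whole of Txnip (chromosome 3, 96555765 to 96566801, minus strand) and shares 606 exon bases with it. Libraries of this kit do not mark strand, so reads over the shared bases cannot be assigned to a strand. Gm15441 held 0.354% to 0.534% of the expected counts given to the pair. Its level was 0.956 ± 0.360 CPM across wild-type and 1.54 ± 0.258 CPM across mutant libraries (SD, n = 3; adjusted p = 0.471 in edgeR), and the genotypes overlapped. With both genes' counts added, the log2 difference of Txnip was 0.45 and the adjusted p 0.312.

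Foxo1, a FoxO factor also required for early B cell development, measured 31.6, 33.1 and 28.9 CPM in wild-type libraries 1, 2 and 3, and 46.2, 38.0 and 33.6 CPM in mutant libraries 1, 2 and 3. Mutant 1 was well above the rest, and mutant 3 was just above the highest wild-type library. The means were 31.2 ± 2.11 and 39.3 ± 6.43 CPM (SD, n = 3), a fold of 1.26 (95% interval 1.06 to 1.5) with an adjusted p of 0.335 in edgeR. Without mutant 1 the log2 difference moved from 0.33 to 0.20. The B cell regulators Pax5 and Ebf1 stood in the same order in the mutant libraries: Pax5 measured 66.8, 41.0 and 26.5 CPM and Ebf1 66.2, 42.5 and 29.2 CPM in mutant 1, 2 and 3. In wild-type 1, 2 and 3, Pax5 measured 18.8, 18.8 and 25.0 CPM and Ebf1 24.5, 19.8 and 25.9 CPM, so wild-type 3 was the highest wild-type library for both but the lowest for Foxo1. Ighm and Ms4a1, also B cell markers, did not follow the Foxo1 order in the mutant libraries. That order was not particular to B cell genes. The summed CPM of the erythroid markers was 222, 178 and 114 in mutant 1, 2 and 3. The mast cell and basophil, macrophage, neutrophil, and T and NK cell sums fell in the same order. The B cell, endothelial and LSK sums did not. Of the 8 B cell markers, 6 had an unadjusted p under 0.05, all with the higher mean in the mutant, and 0 passed adjustment in edgeR, DESeq2 or limma-voom; over all genes 5.83% had such a p with the higher mean in the mutant. Their part in the Foxo1 values was not tested.

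Foxo3, the FoxO gene best known in blood stem cells, was nearly level over the mutant libraries, with an SD of 2.34 CPM at a mean of 183 CPM. Its level was 196, 181 and 163 CPM in wild-type libraries 1, 2 and 3, and 181, 186 and 183 CPM in mutant libraries 1, 2 and 3. All mutant libraries fell inside the wild-type range. The fold was 1.02, with a 95% interval from 0.915 to 1.14 (adjusted p = 0.931 in edgeR). Foxo4, a FoxO relative of lower abundance, measured 8.37, 6.68 and 6.98 CPM across wild-type and 8.38, 7.33 and 7.15 CPM across mutant libraries. Library 1 was the highest of each genotype, and the groups overlapped. Its fold was 1.04 with an interval from 0.829 to 1.30.

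The Krüppel-like genes showed no separation of the genotypes. Klf6, an early-response factor, measured 44.7, 39.3 and 37.0 CPM in wild-type libraries and 43.5, 39.7 and 39.2 CPM in mutant libraries, a fold of 1.01 (95% interval 0.889 to 1.15). Klf2, a factor of T cell quiescence and of resting endothelium, measured 3.38, 2.46 and 2.22 CPM across wild-type and 3.76, 3.07 and 2.54 CPM across mutant libraries. For both genes library 1 was the highest of its genotype and library 3 the lowest, and the genotypes overlapped. The Klf2 fold was 1.17, with an interval from 0.821 to 1.66. Klf4, a reprogramming factor also expressed in monocytes, was the only member with a fitted difference below 0, which was above 0 without wild-type 1, wild-type 3 or mutant 3. It measured 2.66, 1.64 and 2.42 CPM across wild-type and 2.36, 2.44 and 1.72 CPM across mutant libraries. Low and high libraries occurred in both genotypes, and the fold was 0.970 (0.664 to 1.42). Klf2 and Klf4 had the fewest reads of the 10, 108 to 329 and 77 to 206 expected counts per library, and both intervals include the fold seen for Txnip. The adjusted p in edgeR was 0.785 for Klf2, 0.972 for Klf4 and 0.968 for Klf6.

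Of the BTG and TOB genes, Btg2 and Tob1 separated the genotypes in level after TMM scaling and Btg1 did not. Btg2, a target of p53 and an early-response gene, measured 21.2, 19.3 and 16.2 CPM in wild-type libraries 1, 2 and 3, and 22.5, 23.5 and 21.7 CPM in mutant libraries 1, 2 and 3. The lowest mutant library lay just above wild-type 1. The means were 18.9 ± 2.51 and 22.5 ± 0.933 CPM (SD, n = 3), a fold of 1.19 (95% interval 1.01 to 1.41) with an unadjusted p of 0.0445 and an adjusted p of 0.457 in edgeR. Tob1, which links the deadenylase to its targets, measured 10.3, 9.93 and 7.51 CPM across wild-type and 10.8, 10.9 and 11.2 CPM across mutant libraries. Wild-type 3 lay well below the other 5 libraries, and the gap between the genotypes was otherwise narrow. The Tob1 fold was 1.18 (0.949 to 1.47), with an adjusted p of 0.604. Without wild-type 3 the log2 difference was 0.15 for Btg2 and 0.11 for Tob1, in place of 0.25 and 0.24. Btg1, the most abundant of these genes, measured 66.8, 57.2 and 48.8 CPM across wild-type and 61.2, 59.9 and 56.4 CPM across mutant libraries. All Btg1 mutant values fell inside the wild-type range, and its fold was 1.03 (0.880 to 1.2; adjusted p = 0.937).

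**Figure D2:**
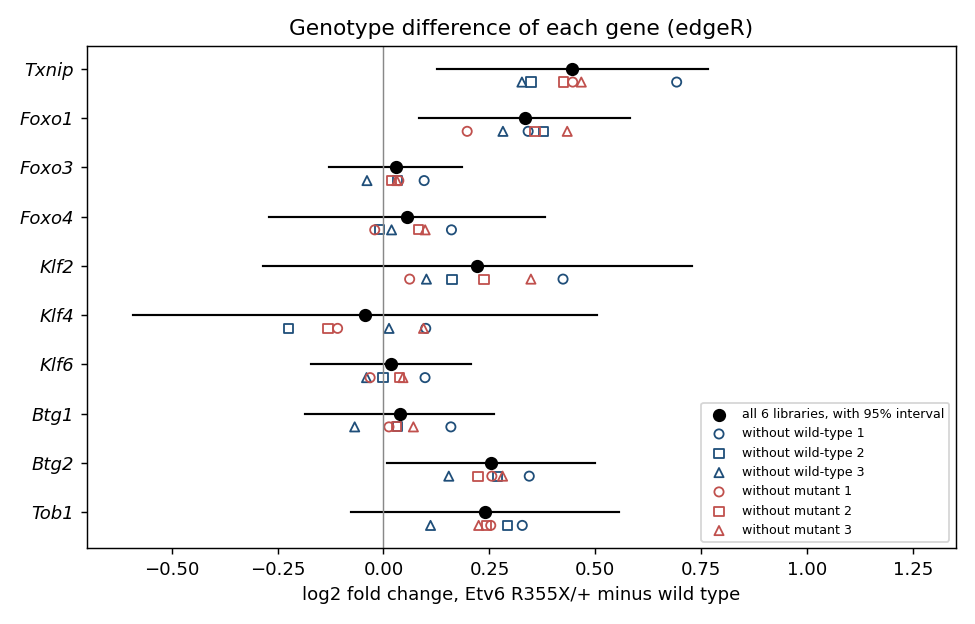
Fitted log2 fold change of each gene, Etv6 R355X/+ minus wild type, in edgeR (black point with its 95% interval) and with each library left out (open symbols). The interval lies above 0 for Txnip, Foxo1 and Btg2, and the Txnip value moves to 0.69 without wild-type 1.

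Within each genotype, the 10 genes often shared the order of the libraries. Wild-type 1 was the highest wild-type library for 9 of the 10, all but Foxo1, and for 33.4% of all tested genes. Wild-type 3 was the lowest wild-type library for 8 of 10 (36% of all genes), and the lowest of all 6 libraries for the same 8. Mutant 3 was the lowest mutant library for 8 of 10 (35.1% of all genes). The coefficient of variation was smaller in the mutant for 9 of 10, the exception being Foxo1, against 46.5% of all genes; for Txnip it was 27.1% in wild type and 2.96% in the mutant. The 10 genes are not independent of each other, and these counts describe 6 libraries.

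**Figure D3:**
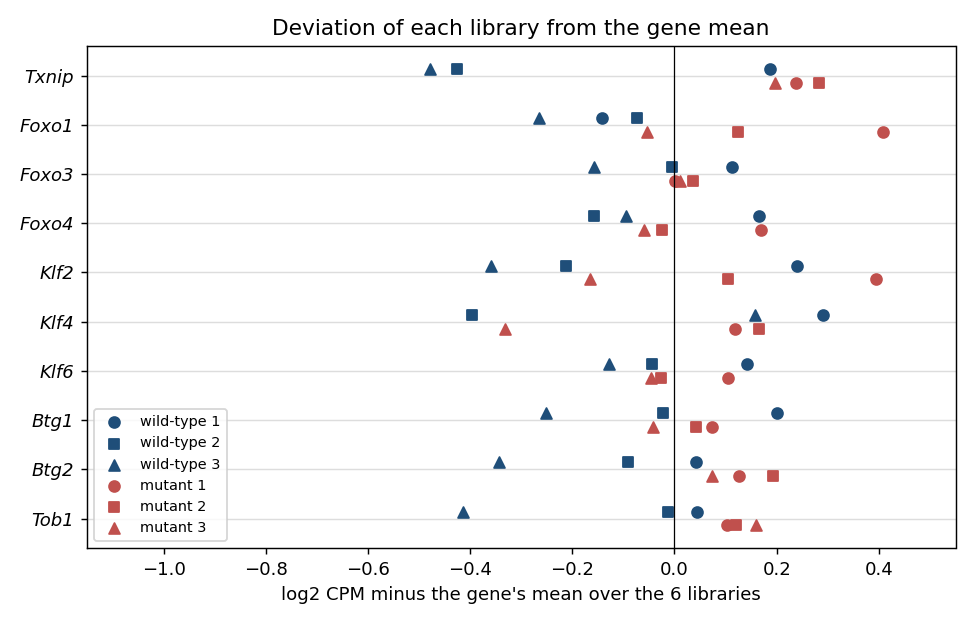
Log2 CPM of each gene in each library minus the gene's mean over the 6 libraries (blue, wild type; red, Etv6 R355X/+; the symbol gives the library number). Wild-type 3 is the leftmost point for 8 of 10 genes, and for Txnip wild-type 1 sits with the mutant libraries.

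The genes whose levels followed Txnip most closely were Neurl3, Gimap8 and Ms4a6b. They had the smallest root-mean-square difference from Txnip in centred log2 CPM over the 6 libraries, 0.133, 0.134 and 0.134, among 8773 genes that average at least 10 CPM. Gimap8, a GTPase of lymphocytes, measured 22.7, 20.2 and 17.4 CPM across wild-type and 28.1, 27.2 and 27.4 CPM across mutant libraries (adjusted p = 0.160 in edgeR; 0.00719 in DESeq2). For Klf2, the most variable member after Txnip, the nearest genes were Marcks, Timp2 and Sytl4, at 0.0925, 0.0942 and 0.102 among 8774 genes. Unlike Txnip, Gimap8 had no wild-type library close to the mutant level. The genes were picked for likeness in these same libraries, so their p-values are not separate evidence on Txnip or Klf2. These rankings rest on 6 libraries.

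Among 34 tested targets of FoxO factors, the lymphoid recombinase gene Rag1 and Sesn1 had the smallest p-values. Rag1 measured 14.3, 14.6 and 15.7 CPM across wild-type and 43.1, 27.0 and 23.0 CPM across mutant libraries (fold 2.09, adjusted p = 0.0617 in edgeR). Sesn1, a stress-induced inhibitor of mTORC1 that is also a p53 target, measured 94.3, 83.4 and 77.1 CPM across wild-type and 148, 119.6 and 112 CPM across mutant libraries (fold 1.49, adjusted p = 0.0688). Neither gene's genotypes overlapped, and mutant 1 was the highest library for both. Rag2 averaged 16.9 ± 0.523 and 32.7 ± 12.1 CPM, and Il7r, the interleukin-7 receptor chain, 23.5 ± 1.34 and 32.5 ± 8.16 CPM (SD, n = 3). In edgeR 0 of 34 targets were called, in limma-voom 0, and in DESeq2 2 (Rag1 and Sesn1, higher in the mutant), where DESeq2 called 1.77% of the genes to which it gave an adjusted p. At an unadjusted p under 0.05, 8 of 34 had the higher mean in the mutant and 2 the lower, against 5.83% and 4.8% of all genes, and the list's median log2 difference was 0.05. Single libraries moved these calls: without mutant 3, Rag1, Sesn1 and Rag2 passed in edgeR (adjusted p = 0.0215, 0.0409 and 0.0367), and without mutant 1, Rag1 passed (0.047). Rag1, Rag2 and Il7r are also genes of early lymphoid progenitors. Pax5 and Ebf1 stood in the same order in the mutant libraries, as did the erythroid, macrophage and neutrophil marker sums. The part of B cells or of other cell types was not tested. S1pr1, a sphingosine-1-phosphate receptor controlling cell egress, measured 10.6 ± 1.72 CPM across wild-type and 8.26 ± 0.676 CPM across mutant libraries (adjusted p = 0.438).

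The regulators that act on FoxO proteins, the kinases, phosphatases, acetylases and 14-3-3 proteins, gave no call. Of 32 tested, 0 passed in edgeR, DESeq2 or limma-voom and 0 had an unadjusted p under 0.05, with a median log2 difference of -0.01. The 14-3-3 gene Ywhae, whose product holds phosphorylated FoxO in the cytoplasm, measured 551 ± 16.9 and 591 ± 18.8 CPM (adjusted p = 0.590). Mtor measured 77.9 ± 1.56 and 73.5 ± 3.43 CPM (adjusted p = 0.670). Sgk1, a kinase that phosphorylates FoxO3, measured 3.81 ± 0.784 and 4.6 ± 0.400 CPM, and Skp2, which marks FoxO1 for degradation, 52.4 ± 4.90 and 57.7 ± 4.15 CPM.

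Around Txnip, 17 genes of the thioredoxin system and 15 of its arrestin relatives, MondoA partners and glucose uptake were tested, and 0 of either list passed in edgeR, DESeq2 or limma-voom. In the thioredoxin list 0 genes had an unadjusted p under 0.05, and the median log2 difference was -0.03. Txn1, the thioredoxin that TXNIP binds, measured 162 ± 12.6 and 177 ± 21.1 CPM (adjusted p = 0.656). In the other list 2 of 15 genes had the higher and 2 the lower mean in the mutant at an unadjusted p under 0.05, against 5.83% and 4.8% of all genes, and the median was -0.04. Arrdc4, the arrestin relative regulated with Txnip by MondoA, measured 14.6, 10.3 and 8.62 CPM across wild-type and 19.0, 13.7 and 14.8 CPM across mutant libraries (fold 1.42, adjusted p = 0.400). As with Txnip, wild-type 1 was the highest wild-type library. Slc2a3, the glucose transporter GLUT3, measured 69.1, 60.5 and 58.2 CPM across wild-type and 44.9, 51.0 and 56.2 CPM across mutant libraries (fold 0.809, adjusted p = 0.280), without overlap. Hk2, the hexokinase, averaged 44.9 ± 5.57 and 38.0 ± 3.53 CPM (adjusted p = 0.441), and Ddit4, an inhibitor of mTORC1, 2.58 ± 0.757 and 3.80 ± 0.112 CPM (adjusted p = 0.417).

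Among 15 other genes of the KLF and SP family, Klf9 and Klf10 had the smallest p-values. Klf9 measured 12.5, 12.4 and 12.5 CPM across wild-type and 8.67, 6.16 and 8.98 CPM across mutant libraries, a fold of 0.638 (adjusted p = 0.168 in edgeR, 0.00346 in DESeq2). Klf10, a TGF-beta-induced repressor, measured 53.3, 45.6 and 48.7 CPM across wild-type and 59.8, 58.6 and 68.6 CPM across mutant libraries, a fold of 1.27 (adjusted p = 0.179 in edgeR, 0.0288 in DESeq2). Both separated the genotypes, in opposite directions. In this list 0 of 15 passed in edgeR and limma-voom and 2 in DESeq2. Over all genes, DESeq2 called 1.77% of those to which it gave an adjusted p. At an unadjusted p under 0.05 in edgeR, 1 was higher and 1 lower in the mutant, against 5.83% and 4.8% of all genes. The median log2 difference was -0.06. The list of the MEK5, ERK5 and MEF2 route to Klf2 and its targets had a median log2 difference of 0.07. Of its 11 tested genes, 0 passed in edgeR and limma-voom and 1 (Itgb7) in DESeq2, against the same 1.77%. At an unadjusted p under 0.05 in edgeR, 3 were higher and 1 lower in the mutant, against 5.83% and 4.8% of all genes. Itgb7, the beta-7 integrin chain, measured 14.3, 16.2 and 13.4 CPM across wild-type and 32.4, 23.4 and 19.3 CPM across mutant libraries (fold 1.72, adjusted p = 0.130 in edgeR, and 0.0384 without mutant 3). Mef2c, a MEF2 factor also of lymphoid progenitors, measured 297 ± 30.1 and 350 ± 11.0 CPM (adjusted p = 0.306), and Thbd, thrombomodulin, 10.6 ± 0.0294 and 12.7 ± 1.23 CPM (adjusted p = 0.467).

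The deadenylase partners of BTG and TOB proteins gave no call. Of 17 tested, 0 passed in edgeR, DESeq2 or limma-voom and 0 had an unadjusted p under 0.05, with a median log2 difference of -0.0055. Cnot7, a catalytic subunit, measured 61.2 ± 1.2 and 57.6 ± 2.04 CPM, and Tob2, the relative of Tob1, 54.4 ± 0.747 and 50.9 ± 4.33 CPM. Prmt1, the arginine methyltransferase that binds BTG proteins, measured 54.0, 60.5 and 59.7 CPM across wild-type and 34.9, 57.2 and 55.0 CPM across mutant libraries, where mutant 1 alone was low (adjusted p = 0.621).

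Genes of the cell cycle itself were measured beside them. Of 16 arrest genes, 0 passed in edgeR, DESeq2 or limma-voom, and 3 had an unadjusted p under 0.05, each with the higher mean in the mutant, against 5.83% of all genes. Cdkn1b, encoding the inhibitor p27, measured 45.8, 37.0 and 38.2 CPM across wild-type and 45, 50.2 and 47.1 CPM across mutant libraries (fold 1.17, adjusted p = 0.413). Cdkn1a, encoding p21, averaged 19.1 ± 2.23 and 24.9 ± 6.48 CPM (adjusted p = 0.447), with mutant 1 at 32.3 CPM and the other 2 mutant libraries at 20.3 and 22.1 CPM. Of 26 proliferation genes, 0 passed by the same 3 tools and 0 had an unadjusted p under 0.05. The median log2 difference was 0.03 in both lists. Pcna, the replication clamp, measured 285 ± 8.82 and 319.6 ± 43.4 CPM, and Cdc20, an activator of the anaphase-promoting complex, 39.5 ± 6.84 and 34.7 ± 2.02 CPM. The summed CPM of the proliferation genes was 4361, 4220 and 5191 in wild type and 5101, 4615 and 4530 in the mutant, and overlapped.

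Klf2, Klf4, Klf6, Btg2 and Txnip respond quickly to handling and stress, so 25 immediate early and stress genes were measured beside them. Their sum was 854, 864 and 677 CPM in wild-type libraries 1, 2 and 3, and 698, 824 and 818 CPM in mutant libraries 1, 2 and 3. Wild-type 3 was the lowest library, as it was for most of the 10 genes. Mutant 1 was the next lowest, but it was the lowest of the 6 libraries for 0 of the 10 genes and the highest for 3. Zfp36l2 alone held 389 CPM of the sum in wild-type 3 and 340 CPM in mutant 1. In edgeR 0 of 25 passed, in limma-voom 0, and in DESeq2 2 (Hspa1a and Dusp5, higher in the mutant). Over all genes, DESeq2 called 1.77% of those to which it gave an adjusted p. At an unadjusted p under 0.05 in edgeR, 3 were higher and 1 lower in the mutant, against 5.83% and 4.8% of all genes. The median log2 difference was -0.04. Hspa1a, an inducible heat-shock chaperone, measured 1.44, 3.07 and 1.81 CPM across wild-type and 4.45, 20.8 and 9.36 CPM across mutant libraries (fold 5.49, adjusted p = 0.0926 in edgeR, and 0.0339 without mutant 1). Its near-identical neighbour Hspa1b measured 2.64 ± 1.21 and 11.7 ± 8.16 CPM, and the split of reads between them is uncertain. Ier3, an early-response gene, averaged 14.1 ± 3.18 and 10.2 ± 2.02 CPM (adjusted p = 0.429). The part of handling in the levels of the 10 genes was not tested.

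**Figure D4:**
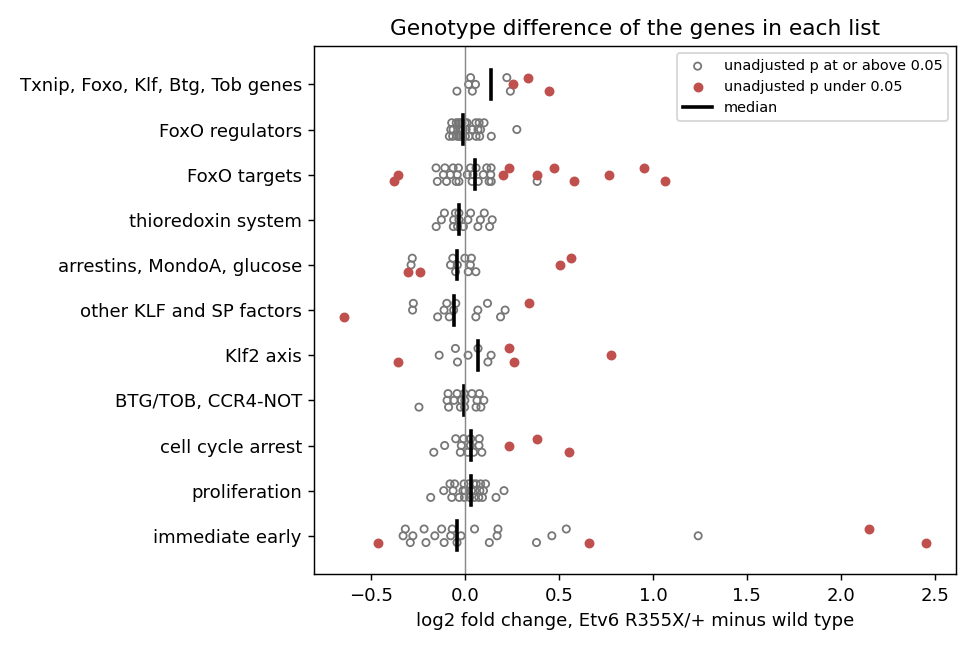
Log2 fold change, Etv6 R355X/+ minus wild type, of each tested gene in the lists named on the left, with filled points for an unadjusted p under 0.05 and a bar at the median. The 10 quiescence-linked genes have a median of 0.14, and no gene shown passed adjustment over all 20646 genes in edgeR.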

How the data were processed

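RNA of 3 wild-type and 3 Etv6 R355X/+ LSK libraries was sequenced after single-primer isothermal amplification, per the labels' protocols; this chemistry does not mark strand. The authors deposited expected counts per gene, which are not scaled and share out reads mapping to several genes. Trim Galore 0.60, STAR 2.7, RSEM 1.31 and build mm10 are named per the submitters' processing notes; the annotation is not given in the sources used here. The 92 spike-in rows, all at 0, were left out.

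Expected counts were rounded, filtered with filterByExpr, scaled by TMM and tested between genotypes with the quasi-likelihood model of edgeR 4.0.16 in R 4.3.3, two-sided and without covariates. Benjamini-Hochberg adjustment covered all 20646 genes, and calls were made at 0.05. Exact permutation tests used log2 CPM with a prior count of 2. DESeq2 1.42.0 and limma 3.58.1 (voom) were among the alternatives. Positions and exon lengths came from GENCODE annotation of mm10, matched for 55394 of 55573 genes. Code was tested on simulated data.

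The text names all 10 members and Etv6, up to 4 genes of each list with the smallest p (some are given by count alone), and the 3 genes nearest in pattern to Txnip and to Klf2. Pax5, Ebf1 and the overlapping gene Gm15441 were chosen after their values were seen. The members and lists were chosen with earlier results of these data known. No library was taken as another deposited again, since counts of every pair within a genotype varied beyond sampling noise (chi-square per gene 10.4 to 42.7); this does not show that they come from separate mice.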

Additional observations from a re-analysis of the deposited data

How the results depend on the processing

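All 10 genes kept the threshold side they had, except Txnip, which passed without wild-type 1 and without a filter on low counts (log2 difference 0.45, adjusted p = 0.000849); the members past the threshold were then 1, and over single left-out libraries they ran from 0 to 1. Txnip kept its sign in 19 of 19 alternatives, and Foxo1, Btg2 and Tob1 in 18 of 18. Without a filter, 527 genes were called in all and Etv6 had -0.30 with an adjusted p of 0.0111; DESeq2 called 329 genes. Leaving out 1 library gave between 16 (without wild-type 2) and 67 (without mutant 3) calls. The labels do not say whether replicate numbers pair the libraries. Same-number correlations of deviations were -0.02, -0.02 and -0.08, which cannot decide this with 3 libraries per genotype. With the replicate block 34 genes were called, the Txnip log2 difference was 0.48 (adjusted p = 0.340 in edgeR) and no member was called. Scaling by library size alone moved the median of all genes to -0.03 and reversed Foxo3 (-0.0067) and Klf6 (-0.020). With that scaling the genotypes also overlapped in Txnip, Foxo1, Btg2 and Tob1. Leaving out mutant 1 and wild-type 3 together, added after the data were seen, gave a members' median of -0.041 and reversed Foxo3 (-0.031), Foxo4 (-0.056), Klf2 (-0.058), Klf6 (-0.089), Btg1 (-0.092), Marcks (-0.079), Timp2 (-0.090) and Sytl4 (-0.20). Over single left-out libraries, the log2 difference ranged from -0.039 to 0.096 for Foxo3, -0.021 to 0.16 for Foxo4, -0.22 to 0.10 for Klf4, -0.040 to 0.098 for Klf6, -0.068 to 0.16 for Btg1 and -0.087 to 0.27 for Sytl4. With the longest transcript as length, the order of levels was the same, with Foxo3 at 26.5 and Foxo4 at 2.37 CPM per kb. Of the other named genes, Rag1 passed in 6 alternatives, Hspa1a in 5 and Sesn1 in 4. The cause of these shifts was not tested. Klf2 and Klf4 had the fewest counts of the 10 genes and the largest standard errors (0.23 and 0.25); the part of depth in these was not tested.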

Other observations

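A transcript of unknown coding status, Gm38034, lies on the same strand within Foxo1 (chromosome 3, 52282241 to 52284309) and shares no annotated exon base with it. It measured 0.587, 0.553 and 1.25 CPM across wild-type and 1.44, 1.25 and 2.07 CPM across mutant libraries (adjusted p = 0.387 in edgeR). Library 3 was the highest of each genotype, whereas for Foxo1 it was the lowest of each. Gm20402, an antisense gene that shares 674 exon bases with Foxo1, was listed at 0 in every library. Both were named after their values were seen.

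Catalase (Cat), a FoxO target that breaks down hydrogen peroxide, measured 95.6 ± 6.63 CPM across wild-type and 109.9 ± 5.16 CPM across mutant libraries (SD, n = 3; adjusted p = 0.340 in edgeR). Gadd45a, a stress sensor counted in the same list, measured 6.66 ± 0.766 and 5.10 ± 0.689 CPM (adjusted p = 0.451). Both were chosen after their values were seen.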
